A study of Mus musculus with 3 samples.

Results

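The mRNA levels of 7 transcription factors of hair differentiation, *Hoxc13*, *Foxn1*, *Msx1*, *Msx2*, *Dlx3*, *Lef1* and *Ovol1*, were examined in single cells of mouse dorsal skin. The genes were chosen by name from the 32285 genes of the expression matrices, and all 7 were measured. Droplet-based single-cell RNA sequencing (scRNA-seq) was performed on 3 libraries, each from the pooled dorsal skin of 7 to 8 female C3H/HeN mice aged 25 weeks. C3H/HeN is an inbred strain, and no transgene or mutant allele was named for any group. The Neg library came from the negative (vehicle) control mice. The AA library came from the alopecia areata (AA) model, in which healthy recipients receive an intradermal injection of cultured skin-draining lymph node cells from affected mice, and the AA+Ab library came from AA model mice treated with a CXCL12-neutralizing antibody. Each group was 1 library of pooled animals, so no test between groups was possible. All intervals given are 95% intervals that cover counting error only, and the library cannot be told apart from the group.

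The growing hair follicle makes the hair shaft from the matrix, a pool of dividing cells above the dermal papilla whose progeny move upward and become either shaft or inner root sheath. *Shh* marks matrix progenitors, *Krt35* is a hair keratin that appears early in the forming shaft, and *Krt71* is a keratin of the inner root sheath. Wnt signals act on the forming shaft through β-catenin and its DNA-binding partner Lef1, Bmp signals act through factors that include Msx1, Msx2 and Foxn1, and the hair keratin genes are known targets of Hoxc13 and Foxn1. Dlx3 is a homeobox factor needed for shaft and root sheath formation, and Ovol1 is a zinc finger factor linked to the exit of epithelial cells from division.

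Cells were kept where mitochondrial UMIs were at most 10% and 200 genes or more were found, which left 6582, 10433 and 9832 cells in Neg, AA and AA+Ab, with median depths of 13694.5, 11177 and 11371 UMIs (unique molecular identifiers, each counted as 1 RNA molecule). Between 14 and 23 cell barcodes were shared by any pair of libraries. Keratinocytes made up 88.9%, 90.1% and 88.3% of the cells. Keratinocytes with 10 or more *Krt35* UMIs were called *Krt35*-positive (183, 175 and 211 cells), those with 10 or more *Krt71* UMIs *Krt71*-positive (174, 152 and 122 cells), and those of the rest with at least 1 *Shh* UMI *Shh*-positive (164, 211 and 274 cells). The *Krt35*-positive share of keratinocytes was 3.13%, 1.86% and 2.43%, the *Krt71*-positive share 2.97%, 1.62% and 1.41%, and the *Shh*-positive share 2.80%, 2.25% and 3.16%. The 5329, 8857 and 8074 other keratinocytes were divided further into *Krt75*-positive, *Krt10*-positive, *Krt25*-positive and remaining cells, again at 10 UMIs. Near that limit, 6, 7 and 9 keratinocytes had 9 *Krt35* UMIs and 9, 11 and 12 had 10. Both keratins reached it in 6, 2 and 2 cells. Of 351, 557 and 598 immune cells, 1, 0 and 3 reached it for *Krt35*.

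The classes carried the markers of the cells they were meant to hold, with exceptions. The 12 measured shaft markers summed to 193, 234 and 278 CPM (the UMIs of the genes divided by all UMIs of the class, scaled by 1e+06) in *Krt35*-positive cells of Neg, AA and AA+Ab, and to between 5.76 and 18.4 CPM in the *Krt71*-positive and *Shh*-positive cells. Their sum was higher in *Krt75*-positive cells, at 245, 290.0 and 296 CPM, but most of it there came from 1 gene of the list, *Padi3*. Of the 12 markers, 1 was highest in the *Krt75*-positive cells in each library, against 7, 5 and 7 in the *Krt35*-positive cells. *Krt31*, a cortex keratin, was at 25.0, 0.548 and 42.6 CPM in the *Krt35*-positive cells, so the AA library held almost none of it there. The 7 root sheath markers summed to 3821, 4354 and 3674 CPM in *Krt71*-positive cells, and 3 of them were highest there in each library. In *Krt75*-positive cells they summed to 2915, 2997 and 3696 CPM, so this list did not separate the 2 classes well. The 6 matrix markers summed to 515, 757 and 705 CPM in *Shh*-positive cells, against 181, 184 and 183 CPM in the remaining keratinocytes. The 10 immune markers summed to at most 15.7 CPM in these classes, and *Dcn*, a proteoglycan gene on the fibroblast list, was at 1058, 1455 and 1430.0 CPM in *Shh*-positive cells. The 6 genes of that list also summed to 1007, 1089 and 1234 CPM in *Krt25*-positive cells and to 262, 378 and 258 CPM in *Krt71*-positive cells. Cells with 10 or more UMIs of *Krt10*, the keratin of the suprabasal epidermis, made up 11.6%, 2.37% and 5.84% of the *Shh*-positive cells. Their part in the differences between libraries was not tested, and *Foxn1* and *Hoxc13* are also given without them.

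Most keratinocytes carried few of these factors, and the *Krt35*-positive and *Krt75*-positive cells carried the most of them per cell. A *Krt35*-positive cell held UMIs of a median of 6 of the 7 genes in every library, a *Krt75*-positive cell of 6, 6 and 5, a *Krt25*-positive cell of 5, a *Krt71*-positive or *Shh*-positive cell 4, a *Krt10*-positive cell 1 and a remaining keratinocyte 0. At least 5 of the 7 genes were found in 92.3% of *Krt35*-positive cells in Neg, 79.4% in AA and 90.5% in AA+Ab, and in 92%, 75.4% and 77.1% of *Krt75*-positive cells. The median depth of the *Krt35*-positive cells was 28155, 18772 and 24036 UMIs, lowest in the library with the lowest share. Median depth was 28650.5, 22319 and 20803 UMIs in *Krt75*-positive cells and 29497, 25059 and 28348 in *Krt25*-positive cells. In the remaining keratinocytes it was only 12546, 10761.5 and 10733 UMIs. The number of genes found in a cell depends on its depth, and these numbers were not thinned. All 7 genes were found together in 45, 26 and 36 *Krt35*-positive cells.

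**Figure D1:**
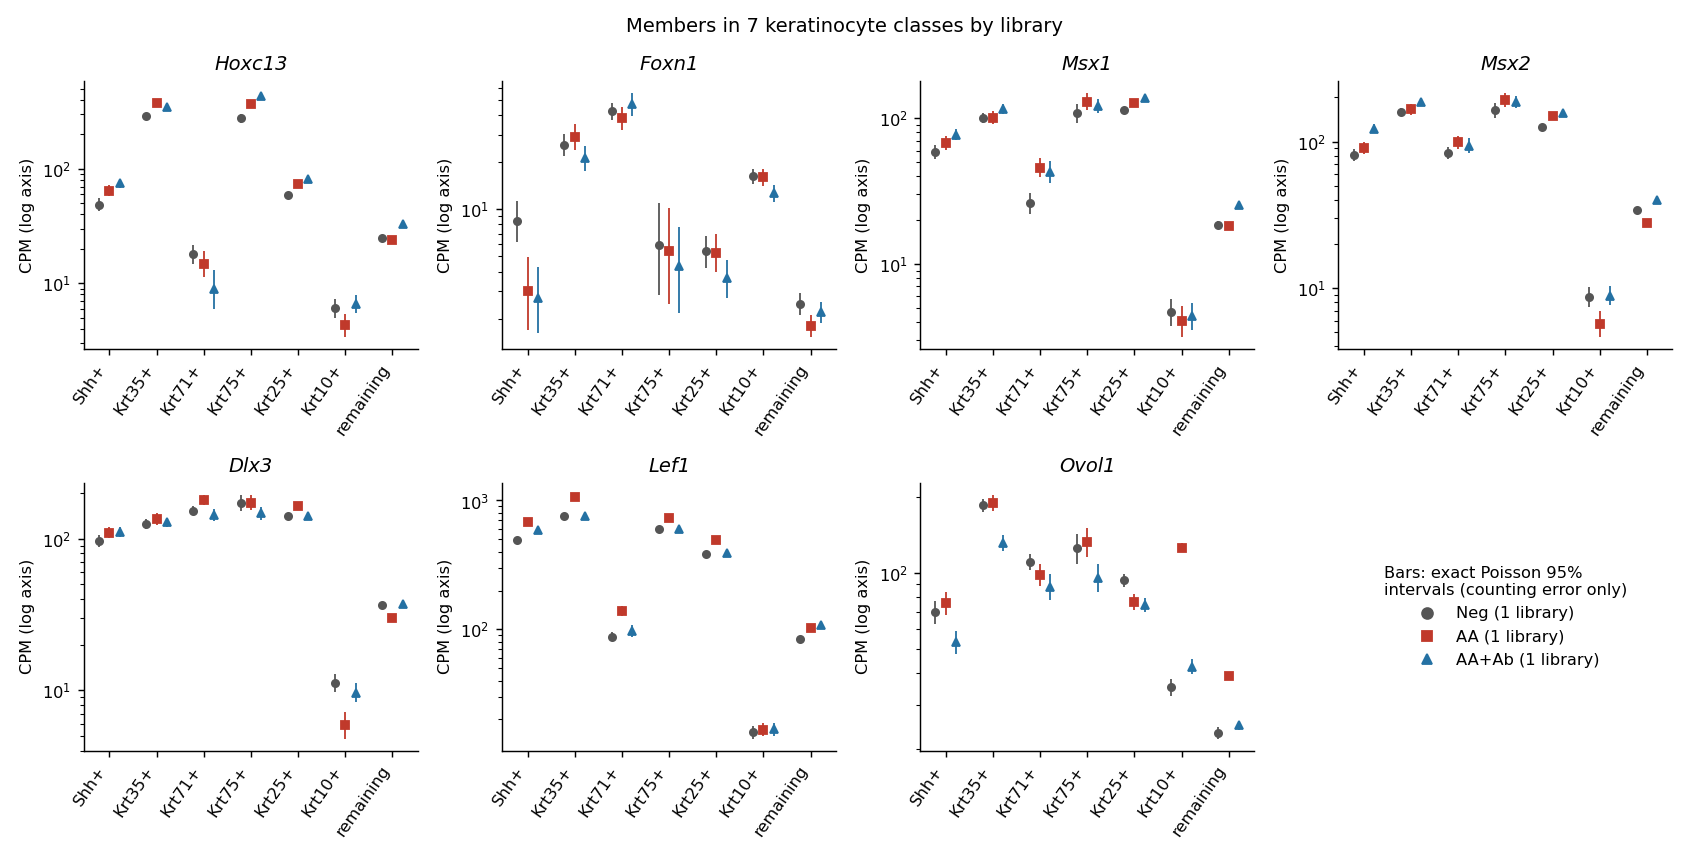
CPM (log axis) of the 7 genes in 7 keratinocyte classes, with 1 point per library (Neg, AA, AA+Ab) and bars for exact Poisson 95% intervals. *Hoxc13* and *Lef1* peak in the *Krt35*-positive or *Krt75*-positive cells, *Foxn1* peaks in the *Krt71*-positive cells, and the 3 libraries lie close together in most classes.

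The *Krt35*-positive cells were the class in which all members exceeded the other keratinocytes. Their CPM was at least 1.5-fold higher there for 7 of 7 genes in all 3 libraries, where 9.83% of all genes with enough UMIs met the same criterion. The median log2 ratio of the 7 genes was 2.16 in Neg, 2.14 in AA and 1.89 in AA+Ab, beside medians of 0.0033, 0.16 and 0.025 over all genes. No member was lower in *Krt35*-positive cells (19.1% of all genes). The *Krt71*-positive cells had 4 of 7 genes higher in all 3 libraries (*Foxn1*, *Msx2*, *Dlx3* and *Ovol1*; 12.8% of all genes) and 1 lower (*Hoxc13*; 19.4% of all genes). The *Shh*-positive cells had 5 of 7 higher (*Hoxc13*, *Msx1*, *Msx2*, *Dlx3* and *Lef1*; 12.1% of all genes). No member was lower there in all 3 libraries, and *Ovol1*, with ratios of 1.86, 1.34 and 1.5, missed the limit in AA. The median log2 ratio was 0.91, 0.79 and 0.84 in *Krt71*-positive cells (all genes 0.043, 0.20 and 0.14) and 0.89, 1.27 and 1.03 in *Shh*-positive cells (all genes 0.088, 0.20 and 0.15).

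**Figure D2:**
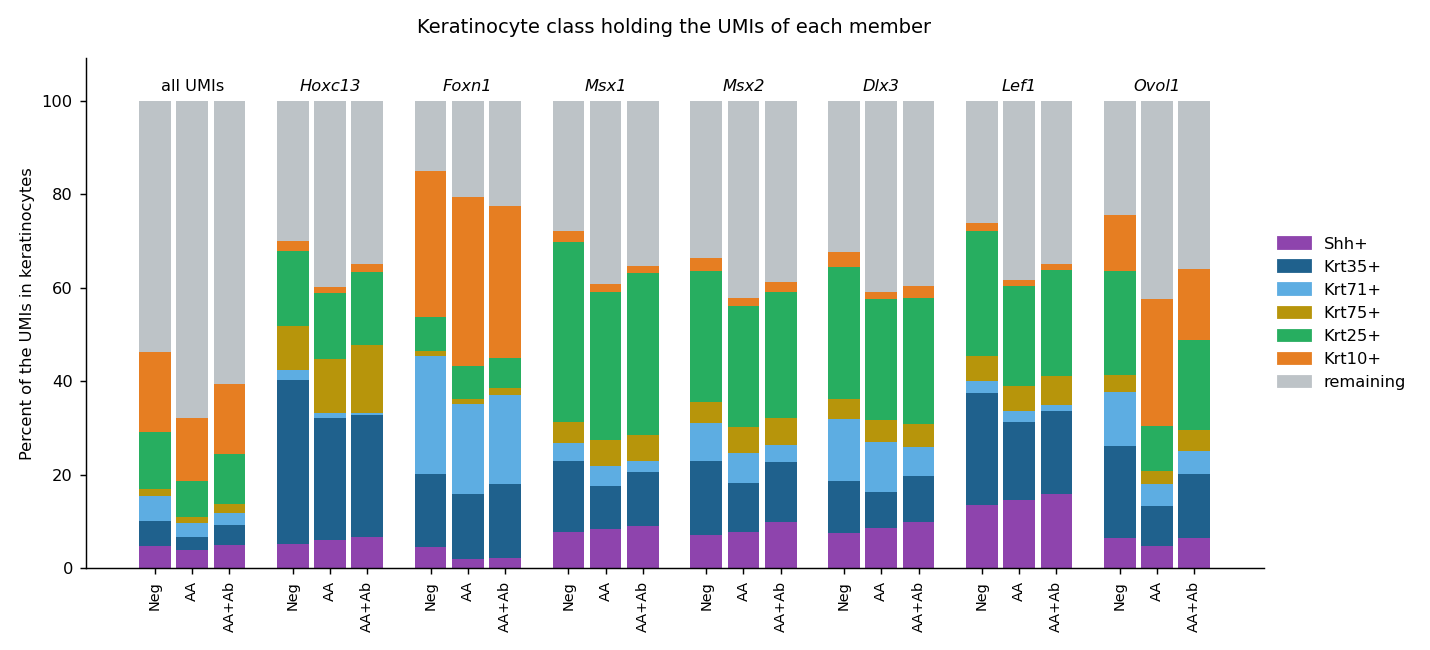
Share of each gene's keratinocyte UMIs (percent) that lay in each keratinocyte class, by library, beside the share of all UMIs. The share exceeds that of all UMIs for *Hoxc13* in the *Krt35*-positive cells and for *Foxn1* in the *Krt71*-positive and *Krt10*-positive cells. It also does so for *Msx1*, *Msx2* and *Dlx3* in the *Krt25*-positive cells. The remaining keratinocytes still hold the largest part of the *Msx2* and *Dlx3* UMIs in every library. They also hold the largest part of the *Hoxc13* and *Msx1* UMIs in AA and AA+Ab.

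*Hoxc13* (GRCm38, chr15:102921103-102928814, plus strand), a homeobox gene whose product binds hair keratin promoters, was a gene of the *Krt35*-positive and *Krt75*-positive cells. In *Krt35*-positive cells its CPM was 288 (275 to 302) in Neg, 377 (357 to 397) in AA and 345 (330 to 360) in AA+Ab. In the *Krt75*-positive cells, 50, 65 and 109 in number, it was 277, 369 and 431 CPM. These cells also held the highest *Padi3* of the classes, 235, 277 and 276 CPM, a peptidylarginine deiminase of the shaft medulla and root sheath. *Hoxc13* stood at 48.7, 64.2 and 74.7 CPM in *Shh*-positive cells and at 30.4, 30.3 and 43.2 CPM in the other keratinocytes. In *Krt71*-positive cells it was lower, 17.8, 14.9 and 8.96 CPM. The ratio of *Krt35*-positive to *Krt71*-positive cells was therefore 16.1, 25.3 and 38.5, the widest gap of the 7 genes between these classes in each library.

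The share of cells with a *Hoxc13* UMI repeated this order. It was 99.5%, 97.1% and 99.1% of *Krt35*-positive cells and 17.2%, 17.8% and 15.6% of *Krt71*-positive cells, and 4.56%, 3.77% and 5.02% of immune cells, which should lack the gene and had median depths of 5665, 4705 and 4387 UMIs. After each cell was thinned to 2000 UMIs, the *Krt35*-positive share was 43.7%, 51.0% and 48.8% and the *Krt71*-positive share 2.23%, 2.11% and 1.80%. The few *Hoxc13* UMIs of the *Krt71*-positive cells (106, 57 and 28) were concentrated, with 64.2%, 54.4% and 50% of them in 5 cells of each library. Their 17.8, 14.9 and 8.96 CPM stood beside 10.6, 9.07 and 22.7 CPM in immune cells, so in AA+Ab the CPM was no higher than in immune cells. After thinning, 0.775% to 1.40% of immune cells had a *Hoxc13* UMI, a lower share than that of *Krt71*-positive cells in every library. Without the cells with 10 or more *Krt10* UMIs the *Krt71*-positive level was 11.9, 15.3 and 9.14 CPM. *Krt35*-positive cells were 3.13% of the Neg keratinocytes and held 35.1% of their *Hoxc13* UMIs, and the corresponding share was 26.0% in AA and 26.2% in AA+Ab.

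*Lef1* (chr3:131110471-131224356, plus strand), the Wnt effector, was present in nearly every *Krt35*-positive cell. Its CPM there was 759 (737 to 781) in Neg, 1070.0 (1037 to 1104) in AA and 762 (740 to 785) in AA+Ab. It was also high in *Shh*-positive cells, at 493, 680 and 589 CPM, and in *Krt75*-positive cells, at 598, 737 and 598 CPM. In the *Krt71*-positive cells *Lef1* stood near the level of the remaining keratinocytes, with 87.9, 139 and 97.3 CPM beside 84.2, 102 and 107 CPM. The ratio of *Krt35*-positive to *Krt71*-positive cells was 8.63, 7.70 and 7.84. Between *Shh*-positive cells and other keratinocytes the ratio was 4.04, 5.13 and 4.29, the highest of the 7 genes in each library.

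Some members were also found outside the epithelium. The dermal papilla cells, 5, 16 and 16 in number, held 31, 100 and 77 *Lef1* UMIs, and *Hoxc13*, *Foxn1* and *Dlx3* had 0 UMIs in them in all 3 libraries. A count of 0 allows up to 28.5, 29.1 and 22.9 CPM in cells of that number. *Msx2* had 3, 2 and 8 UMIs in them. *Lef1* was at 169, 127 and 129 CPM in melanocytes, and *Msx1* was at 48.0, 39.6 and 9.97 CPM in the 50, 136 and 41 fibroblasts. Immune cells had *Lef1* at 133, 67.9 and 116 CPM. T cells express *Lef1*, so immune cells give no background value for it.

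RefSeq lists 4 start sites for *Lef1*, and the 250 bases upstream of the most downstream one (GRCm38.p6, chr3:131156044-131156293, plus strand) are shown because they hold the core motif bound by Lef1 itself. Capitals mark TCAAAG, the reverse complement of CTTTGA, which begins 180 and 120 bases before the start. Either strand of this motif was present in 13.8% of 32851 promoters of the same length.
Lef1 promoter: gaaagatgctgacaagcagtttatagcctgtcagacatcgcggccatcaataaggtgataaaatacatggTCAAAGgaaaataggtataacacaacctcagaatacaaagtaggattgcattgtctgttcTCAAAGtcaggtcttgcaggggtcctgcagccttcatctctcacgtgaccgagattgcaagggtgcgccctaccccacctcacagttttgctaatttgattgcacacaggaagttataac

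*Msx1* (chr5:37820485-37824583, minus strand) and *Msx2* (chr13:53466884-53473074, minus strand) encode related homeobox repressors that respond to Bmp signals. *Msx1* was at 100.1, 101 and 116 CPM in *Krt35*-positive cells and at 58.5, 68.0 and 77.1 CPM in *Shh*-positive cells. Its level in the *Krt25*-positive cells, 113, 127 and 139 CPM, was as high or higher, and 38.4%, 31.7% and 34.5% of its keratinocyte UMIs lay there. *Krt25* is a root sheath keratin, and 94.7%, 92.7% and 93.6% of the cells in that class carried at least 3 of 4 cell cycle markers. In *Krt71*-positive cells *Msx1* was at 26.1, 45.9 and 42.9 CPM.

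*Msx2* had a smaller step between the keratin classes, and its *Krt71*-positive and *Shh*-positive levels were close in Neg and AA. It reached 159, 166 and 185 CPM in *Krt35*-positive cells, 83.7, 98.8 and 93.7 CPM in *Krt71*-positive cells and 81.6, 90.2 and 122 CPM in *Shh*-positive cells. The other keratinocytes had 44.4, 37.5 and 52.2 CPM. Among them, the *Krt75*-positive cells had the highest *Msx2* of the classes in each library, at 163.6, 191.5 and 185.8 CPM. This was close to the *Krt35*-positive level in Neg and AA+Ab. The *Krt25*-positive cells had 125.8, 149.6 and 157.2 CPM. The ratio of *Krt35*-positive to *Krt71*-positive cells was 3.83, 2.20 and 2.71 for *Msx1* and 1.90, 1.68 and 1.98 for *Msx2*. A *Msx2* UMI was found in 92.3%, 82.9% and 91.5% of *Krt35*-positive cells and in 6.84%, 4.31% and 8.86% of immune cells.

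The 250 bases upstream of *Msx2* (GRCm38.p6, chr13:53472781-53473030, minus strand) are shown because the motif of another member occurs more than once in them. Capitals mark GCGTC, the reverse complement of the FOXN1 core motif GACGC, beginning 110 and 101 bases before the start. This motif was found on either strand in 22.6% of promoters. It also occurred in the windows of the first and second *Lef1* starts, which overlap and share the same single copy. The windows of *Foxn1* and *Msx1* held none of the 4 motifs searched. These included TAATTG of homeobox factors (7.17% of promoters) and CCGTTA of OVOL1 (2.18%).
Msx2 promoter: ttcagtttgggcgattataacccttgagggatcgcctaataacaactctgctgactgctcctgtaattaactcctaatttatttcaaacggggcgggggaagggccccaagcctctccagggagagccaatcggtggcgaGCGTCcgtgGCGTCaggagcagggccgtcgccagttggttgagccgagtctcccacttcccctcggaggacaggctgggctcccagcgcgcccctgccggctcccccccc

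*Dlx3* (chr11:95120119-95125296, plus strand) was nearly evenly distributed between shaft and root sheath keratin cells. Its CPM was 126, 135 and 128 in *Krt35*-positive cells and 153, 179 and 143 in *Krt71*-positive cells, a ratio of 0.82, 0.76 and 0.89. The *Krt25*-positive cells had 142, 164 and 140 CPM and the *Krt75*-positive cells 172, 174 and 147 CPM. A *Dlx3* UMI was present in 86.8%, 88.8% and 86.9% of *Krt71*-positive cells. In *Krt10*-positive cells it was near the lower end, at 11.1, 5.89 and 9.65 CPM, and in immune cells it was at 26.8, 9.85 and 27.9 CPM.

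*Foxn1* (chr11:78357577-78386558, minus strand), the forkhead gene mutated in the nude mouse, had the reverse order of *Lef1* in the keratin classes. It was highest in *Krt71*-positive cells, at 42.6 (37.5 to 48.2), 38.3 (32.4 to 45.1) and 47.0 (39.7 to 55.3) CPM. *Krt35*-positive cells followed with 25.8, 29.1 and 21.3 CPM, and *Krt10*-positive cells with 16.3, 16.0 and 12.7 CPM. The remaining keratinocytes had 2.48, 1.80 and 2.19 CPM and immune cells 3.91, 2.33 and 5.63 CPM. This order of *Krt71*-positive, *Krt35*-positive and *Krt10*-positive cells was found in all 3 libraries, and the intervals of the ratios between these neighbours did not include 1.

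*Foxn1* was therefore also a gene of the *Krt10*-positive cells. These held 31.3%, 36.3% and 32.4% of its keratinocyte UMIs, beside 17.1%, 13.4% and 15.0% of all keratinocyte UMIs. The *Krt71*-positive cells held 25.3%, 19.2% and 19.0% of its UMIs, beside 5.29%, 2.98% and 2.38% of all. The share of cells with a *Foxn1* UMI was 62.1%, 53.9% and 63.1% in *Krt71*-positive cells, 33.0%, 20.1% and 20.9% in *Krt10*-positive cells and 2.85%, 0.718% and 2.68% in immune cells. *Ovol1* had 11.8%, 27.2% and 15.2% of its UMIs in the *Krt10*-positive cells. This was below the class's share of all UMIs in Neg, above it in AA and near it in AA+Ab. *Hoxc13*, *Msx1*, *Msx2* and *Dlx3* were lower there than in the immune cells of the same library in all 3 libraries, and such levels are read as background. Their UMIs were not evenly spread. The 7, 11 and 10 *Krt10*-positive cells with the most of a gene held 24.8% to 77.1% of the UMIs of these 4 genes. The corresponding shares for *Lef1* were 45.4%, 65.6% and 61.7%.

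*Ovol1* (chr19:5549136-5560646, minus strand) was highest in *Krt35*-positive cells, at 185 (175 to 196) CPM in Neg, 189 (175 to 204) in AA and 132 (123 to 142) in AA+Ab. *Krt71*-positive cells had 111, 98.1 and 88.3 CPM and *Shh*-positive cells 69.7, 75.8 and 53.3 CPM. In the *Krt10*-positive cells the libraries were far apart, at 35.2, 126 and 42.4 CPM. An *Ovol1* UMI was present in 85.8%, 72.0% and 75.4% of *Krt35*-positive cells and in 7.12%, 6.82% and 6.35% of immune cells.

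Direct comparison of the classes with each other gave the same grouping. *Hoxc13*, *Msx1*, *Msx2* and *Lef1*, 4 of 7 genes, were at least 1.5-fold higher in *Krt35*-positive than in *Krt71*-positive cells in all 3 libraries (6.12% of all genes). Against *Shh*-positive cells, the *Krt35*-positive cells were higher for 4 of 7, *Hoxc13*, *Foxn1*, *Msx2* and *Ovol1* (3.15% of all genes). Between *Krt71*-positive and *Shh*-positive cells, 1 gene was higher (*Foxn1*; 3.65% of all genes) and 2 were lower (*Hoxc13* and *Lef1*; 12% of all genes).

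The level of the class keratin in a cell was taken as a scale within each keratin class, and cells with 100 or more but under 1000 keratin UMIs were compared with cells with 10 to 99. Among *Krt35*-positive cells (39 against 144 in Neg, 21 against 154 in AA and 41 against 170 in AA+Ab), *Msx1* was lower in the cells with more keratin, with ratios of 0.40, 0.25 and 0.38. *Foxn1* was higher, with ratios of 1.77, 1.82 and 2.72, and *Hoxc13* was slightly higher, with 1.21, 1.34 and 1.14. *Ovol1* was lower at 0.78, 0.76 and 0.68, and *Mki67*, a marker of dividing cells, was lower at 0.40, 0.115 and 0.032. Among *Krt71*-positive cells *Msx1* was again lower (0.57, 0.60 and 0.57) and *Foxn1* higher (1.57, 1.95 and 1.20) in the cells with more keratin, and *Dlx3* was higher as well (1.60, 1.23 and 1.18). In AA+Ab the intervals of both of these last ratios included 1 (0.83 to 1.71 for *Foxn1* and 0.96 to 1.45 for *Dlx3*). The ratios of *Msx1* were under 1 and those of *Foxn1* over 1 in both keratin classes of all 3 libraries, and *Lef1* did not have 1 direction in both.

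**Figure D3:**
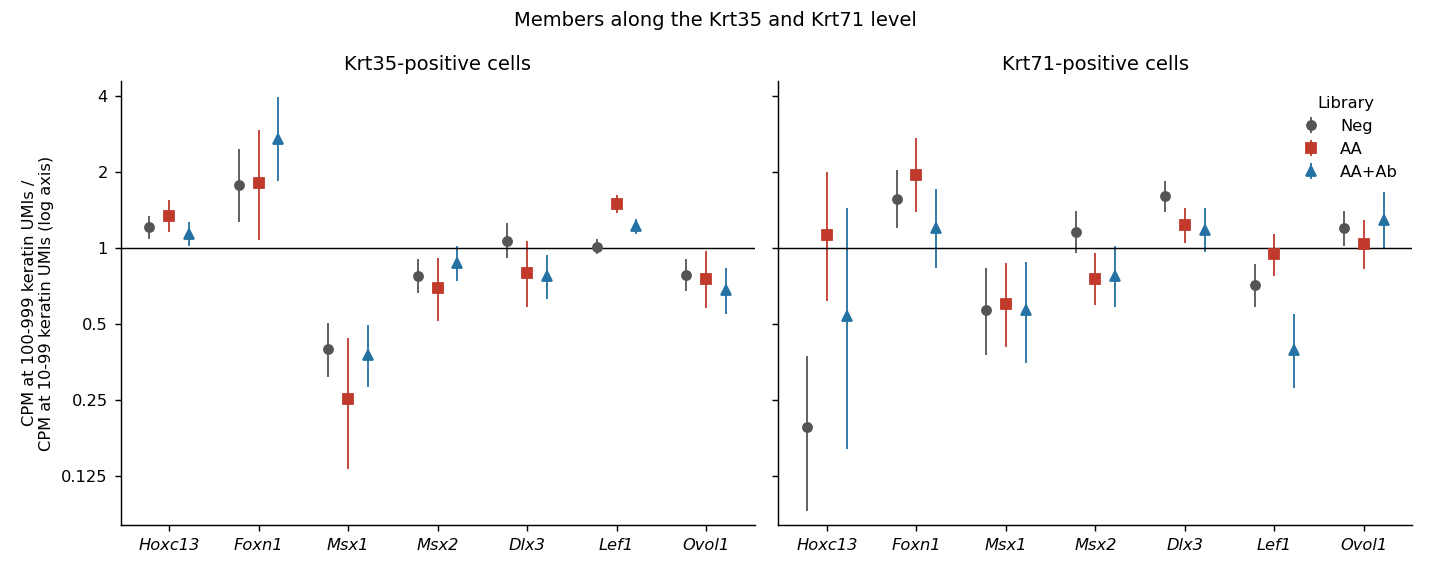
Ratio (log axis) of CPM in cells with 100 or more but under 1000 keratin UMIs to CPM in cells with 10 to 99, for each gene and library, in *Krt35*-positive cells (left) and *Krt71*-positive cells (right), with exact 95% intervals. *Msx1* lies below 1 and *Foxn1* above 1 in both panels and in every library, and the AA+Ab intervals of *Foxn1* and *Dlx3* in the right panel include 1.

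The *Shh*-positive class mixed cells with and without cell cycle markers, and the members differed between them. Cells with at least 3 of 4 markers (*Mki67*, *Top2a*, *Stmn1*, *Birc5*) made up 69.5%, 71.6% and 70.4% of the *Shh*-positive cells. In these cells *Msx1* was 3.20, 4.49 and 1.96 times and *Lef1* 2.46, 1.66 and 1.96 times as high as in the other *Shh*-positive cells, and *Dlx3* was 1.96, 1.92 and 1.97 times as high. In *Krt35*-positive cells, of which 71.6%, 47.4% and 54.0% carried the markers, *Lef1* (0.78, 0.76 and 0.81) and *Hoxc13* (0.81, 0.64 and 0.77) were lower in the cycling cells. The direction for *Lef1* thus differed between the *Shh*-positive and the *Krt35*-positive cells in every library, a difference that was not tested.

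Between libraries, the levels within the *Krt35*-positive cells were close. In the AA library against Neg, 0 of 7 genes passed 1.5-fold in *Krt35*-positive cells (17.2% of all genes in either direction), and the 7 ratios ranged from 1.01 to 1.41. For AA+Ab against AA the count was again 0 of 7 (19.9% of all genes; ratios 0.70 to 1.15), as it was for AA+Ab against Neg (15.1% of all genes; ratios 0.71 to 1.20). *Lef1* had the highest ratio of AA to Neg in these cells, 1.41 (1.35 to 1.47), followed by *Hoxc13* at 1.31, and the *Lef1* ratio of AA+Ab to Neg was 1.00. In the same cells the 3 suprabasal markers summed to 1011, 223 and 963 CPM and the 7 root sheath markers to 854, 504 and 739 CPM, both lowest in AA. The share of cycling cells, in which *Lef1* and *Hoxc13* were lower, was 71.6%, 47.4% and 54.0%, also lowest in AA. The part of these differences in the ratios was not tested. Without the cells with 10 or more *Krt10* UMIs, *Lef1* was at 806, 1091 and 812 CPM. The number of *Krt35*-positive cells per keratinocyte was lowest in AA, while no ratio of AA to Neg within these cells was under 1. Without the cells with 10 or more *Krt10* UMIs, *Msx1* (109 and 101 CPM), *Msx2* (172 and 167 CPM) and *Ovol1* (192 and 190.0 CPM) were slightly lower in AA than in Neg. The interval of the AA to Neg ratio included 1 for 5 of the 7 genes.

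Among the hair keratin and progenitor classes, differences past 1.5-fold were found in the *Krt71*-positive and *Shh*-positive cells. In *Krt71*-positive cells 2 of 7 genes passed in AA against Neg (12.1% of all genes), *Msx1* at 1.76 (1.41 to 2.20) and *Lef1* at 1.58 (1.40 to 1.79). *Hoxc13* alone passed in AA+Ab against AA (16.6% of all genes) at 0.60 (0.37 to 0.96), from 57 and 28 UMIs. Against Neg, 2 genes passed in AA+Ab (13.5% of all genes), *Hoxc13* at 0.50 and *Msx1* at 1.64. Without the *Krt10*-carrying cells *Hoxc13* was at 11.9 CPM in Neg and 9.14 CPM in AA+Ab and did not pass.

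In *Shh*-positive cells *Foxn1* was the 1 gene that passed in AA against Neg (13.6% of all genes), with 45 UMIs in Neg and 15 in AA, a ratio of 0.36 (0.18 to 0.65). Its CPM was 8.44, 3 and 2.71 beside 3.91, 2.33 and 5.63 in immune cells, so that the CPM of AA+Ab was no higher than in immune cells. The share of cells with a UMI was 17.7%, 4.74% and 5.47%. After thinning it was 1.94%, 0.486% and 0.611%, beside 0.0975% to 0.268% of immune cells. After the cells with 10 or more *Krt10* UMIs were left out the level was 7.75, 2.87 and 1.47 CPM. The 5 cells with the most held 42.2%, 66.7% and 44.4% of these UMIs. No gene passed in AA+Ab against AA (17% of all genes), and *Foxn1* (0.32) and *Hoxc13* (1.53) passed in AA+Ab against Neg (14.1% of all genes). Without the *Krt10*-carrying cells *Hoxc13* was at 55.6, 65.8 and 79.5 CPM and did not pass.

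Among the other keratinocytes *Ovol1* was the 1 gene of 7 that passed in AA against Neg (16.7% of all genes), at 1.51 (1.45 to 1.57), and in AA+Ab against AA (16.5% of all genes), at 0.63. For AA+Ab against Neg 0 of 7 passed (13.9% of all genes). In the immune cells, whose UMIs of these genes were taken as background, 5 of 7 genes were at least 1.5-fold lower in AA than in Neg (23.1% of all genes in either direction) and 6 of 7 at least 1.5-fold higher in AA+Ab than in AA (24.8% of all genes). *Lef1*, which T cells express, is among both counts. *Ovol1* was in neither count, with 22.9, 24.6 and 27.7 CPM in immune cells.

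**Figure D4:**
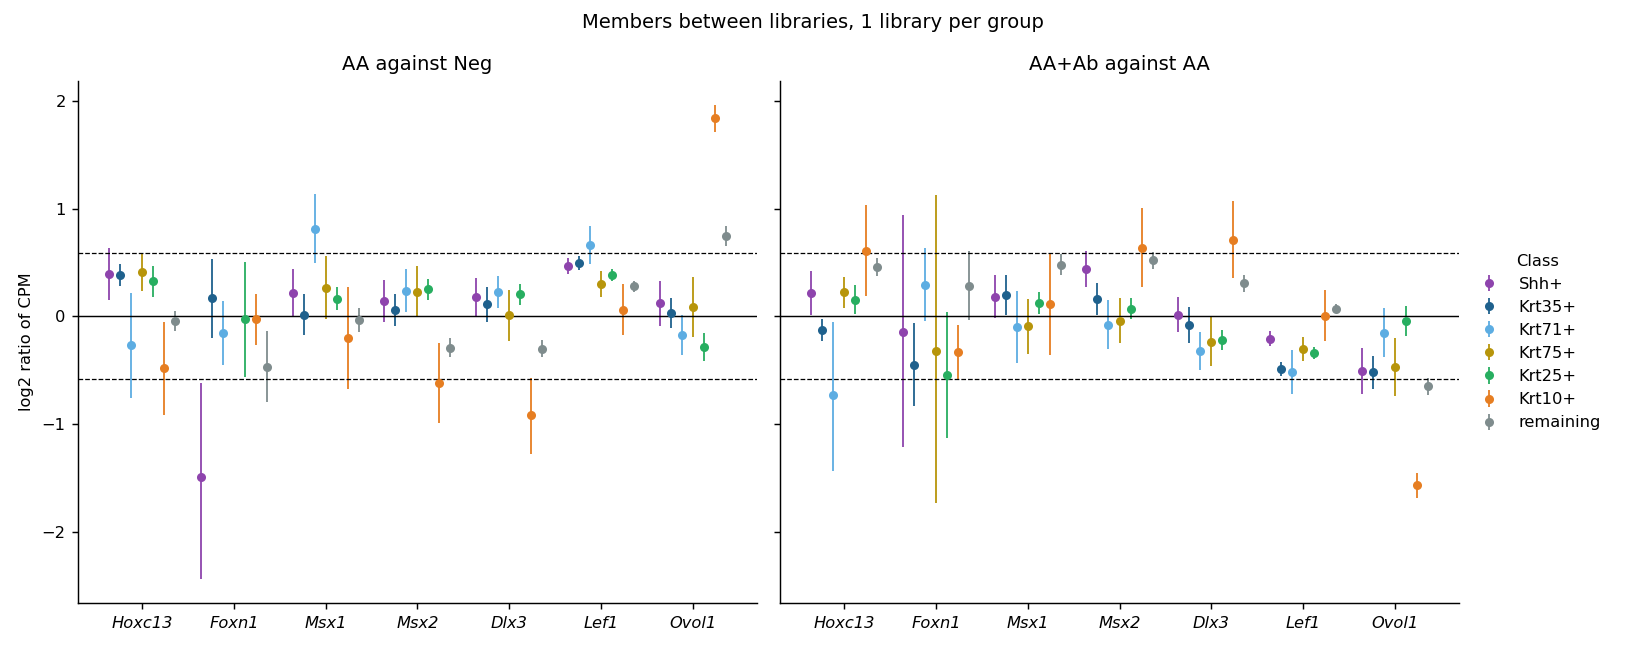
log2 ratio of CPM between libraries for each gene in each keratinocyte class, AA against Neg (left) and AA+Ab against AA (right), with exact 95% intervals and dashed lines at 1.5-fold. The *Ovol1* value of the *Krt10*-positive cells is the point farthest from 0 in both panels, above 0 on the left and below 0 on the right.

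*Ovol1* in the *Krt10*-positive cells was the widest difference between libraries among the members. The class held 643, 1081 and 970 cells, 11%, 11.5% and 11.2% of keratinocytes, with 676, 2183 and 836 *Ovol1* UMIs. The ratio of AA to Neg was 3.58 (3.28 to 3.91), that of AA+Ab to AA 0.34 (0.31 to 0.37) and that of AA+Ab to Neg 1.21 (1.09 to 1.34). In AA against Neg 1 of 7 genes was higher in these cells (4.89% of all genes) and 2 were lower (*Msx2* at 0.65 and *Dlx3* at 0.53; 16.7% of all genes), around a median log2 ratio of -0.17 over all genes. From AA to AA+Ab 3 were higher (*Hoxc13* at 1.52, *Msx2* at 1.56 and *Dlx3* at 1.64; 6.69% of all genes) and 1 was lower (*Ovol1*; 8.18% of all genes). None passed in AA+Ab against Neg (17.4% of all genes). The values of *Hoxc13*, *Msx2* and *Dlx3* were at background level in these cells. *Foxn1*, at 16.3, 16.0 and 12.7 CPM, and *Lef1*, at 15.9, 16.6 and 16.7 CPM, did not pass in any pair of libraries.

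An *Ovol1* UMI was present in 38.1%, 43.7% and 29.6% of *Krt10*-positive cells at median depths of 21114, 14072 and 15183 UMIs, and in 6.30%, 15.8% and 6.46% after thinning to 2000 UMIs. Cells with 5 or more *Ovol1* UMIs were 6.07%, 14.1% and 5.15% of the class. In cells with 10 to 99 *Krt10* UMIs the level was 34.7, 121 and 41.1 CPM, and in cells with 100 or more but under 1000 it was 35.5, 132 and 43.6 CPM. The AA library was the highest in both ranges. The 5 cells with the most *Ovol1* held 13.8%, 7.60% and 10.9% of its UMIs in the class, and the median cell had 0.

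Other properties of the *Krt10*-positive cells also differed between the libraries. *Krt79*, a keratin of the upper follicle, was at 568, 282 and 540 CPM in them and *Krt17*, a keratin of the follicle, at 948, 450 and 1065 CPM, both lowest in AA. Among cells with fewer than 3 *Krt79* UMIs *Ovol1* was at 35.1, 127 and 40.4 CPM, and among cells with 3 or more it was at 35.7, 113 and 53.5 CPM. The ratio of AA to Neg was thus 3.62 and 3.16. Cycling cells made up 15.9%, 4.53% and 9.07% of the class, and without them the log2 ratio of AA to Neg was 1.92. In the remaining keratinocytes, which had few *Krt10* UMIs, *Ovol1* was at 23.3, 39.0 and 24.9 CPM, against 22.9, 24.6 and 27.7 CPM in immune cells. Its UMIs were present in 13.6% to 18.4% of these keratinocytes and in 6.35% to 7.12% of immune cells. After thinning the shares were 3.23% to 5.74% and 1.45% to 2.14%, so the keratinocytes exceeded the immune cells by this measure.

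**Figure D5:**
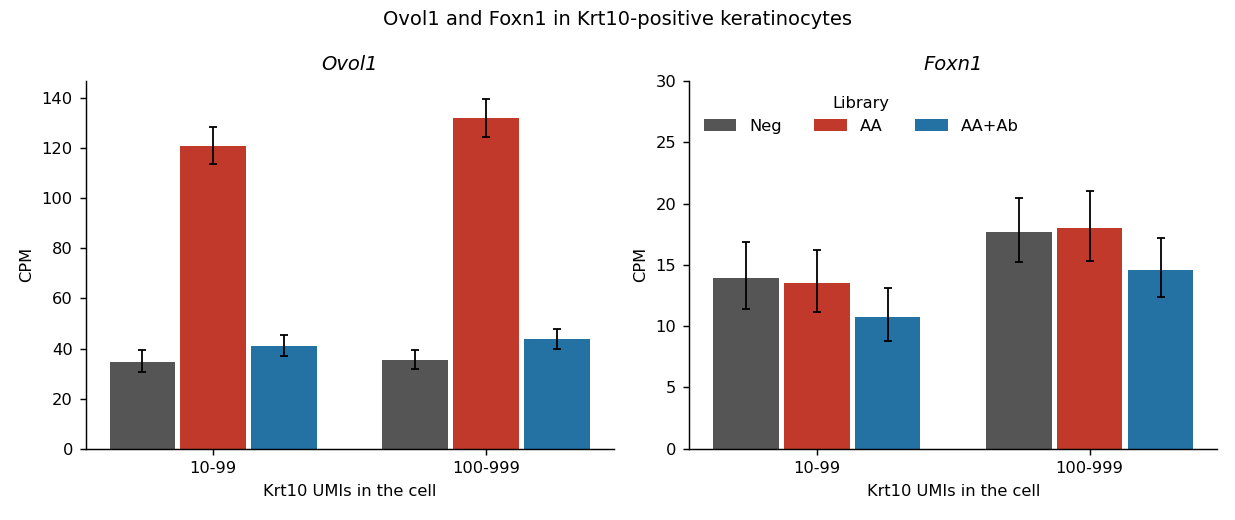
CPM of *Ovol1* (left) and *Foxn1* (right) in *Krt10*-positive keratinocytes with 10 to 99 or 100 or more but under 1000 *Krt10* UMIs, 1 bar per library, with exact Poisson 95% intervals. The AA bars of *Ovol1* stand at 121 and 132 CPM against 34.7 to 43.6 CPM in the other libraries, and the *Foxn1* bars lie between 10.8 and 18.0 CPM.

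Other transcription factors of the follicle did not share the pattern of the members as a group. Of 41 such genes with enough UMIs, 12 were at least 1.5-fold higher in *Krt35*-positive cells than in other keratinocytes in all 3 libraries and 19 were lower. Of all genes, 9.83% and 19.1% did so. *Trps1*, a zinc finger repressor, was 5.66, 8.66 and 6.21 times as high, and *Id2*, an inhibitor of helix-loop-helix factors, 3.91, 5.66 and 4.90 times. Lower genes included *Sox9*, a factor of the outer root sheath and stem cells, at 0.236, 0.048 and 0.105, and *Gata3*, a root sheath and epidermal factor, at 0.366, 0.110 and 0.219. In *Krt71*-positive cells 13 of 41 were higher and 14 lower, against 12.8% and 19.4% of all genes, with *Cux1* at 3.54, 4.86 and 3.85 and *Foxe1* at 5.95, 6.41 and 4.59.

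Genes of the Wnt, Bmp, Notch, Shh and Eda pathways divided by class. In *Krt35*-positive cells 14 of 39 were higher in all 3 libraries and 8 lower, against 9.83% and 19.1% of all genes. The Notch receptor *Notch1* (3.22, 4.30 and 3.35), its ligand *Jag1* (3.28, 3.99 and 3.42) and the target *Hes1* (3.02, 4.50 and 2.96) were among the higher genes. In *Shh*-positive cells 16 of 40 were higher and 4 lower, against 12.1% of all genes in either direction. These included the ligand *Wnt10b* (6.49, 14.7 and 11.1), the Wnt inhibitor *Wif1* (24.3, 33.6 and 28.1) and the receptor *Edar* (7.11, 11.1 and 8.98). *Notch1* and *Hes1* were also higher in *Krt71*-positive cells, where *Wnt10b* was lower.

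Of 14 known hair differentiation targets of these factors with enough UMIs, 9 were higher in *Krt35*-positive cells in all 3 libraries (9.83% of all genes). *Krt32* and *Foxq1*, 2 of 14, were lower (19.1% of all genes). The list shares hair keratins and *Dsg4* with the shaft markers, and the class was itself set by a hair keratin. The counts therefore describe the class and are no test of the factors. *Dsg4*, a desmoglein of the shaft and a target of Hoxc13, was 115, 102 and 79.1 times as high as in other keratinocytes, and *Krt36* 47.8, 99.5 and 107 times, from low levels of 15.6, 14.5 and 13.9 CPM. *S100a3*, a calcium-binding protein of the cuticle, was 7.47, 11.9 and 5.19 times as high. In *Krt71*-positive cells 0 of 10 targets were higher in all 3 libraries and 3 were lower, against 12.8% and 19.4% of all genes.

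The genes whose levels followed the members most closely were sought over 34 sums of cells (classes by library), which share libraries and depth, among 15162 genes. Pearson's r of log2(CPM + 5) is given as a description. *Msx2* and *Dlx3* were each other's nearest gene (r = 0.97). Among the genes most like *Msx1* were *Gmcl1* and *Msx2* (each 0.93). *Hoxc13* was nearest to *Prr5l* (0.93) and *Lef1* to *Tmeff1* (0.93). *Foxn1* was nearest to *Ppfia3* (0.92) and *Ovol1* to *Casz1* (0.91), and *Foxn1* and *Lef1* were the least alike of the members (0.21).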

How the data were processed

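Per the labels, 10x Genomics 3′ v3.1 libraries were made from collagenase-digested dorsal skin after a Percoll gradient, and the submitters' processing notes name Cell Ranger 7.2.0, FastQC 0.11.7 and the build mm10. The deposited values were raw UMI counts per gene and cell barcode, from the filtered matrices of the authors, with no normalization. The 7 genes, the gene lists and the classes were chosen with earlier results of these data known, and the thresholds on marker genes were set after the values were seen.

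Cells with at most 10% mitochondrial UMIs and at least 200 genes were kept. A keratinocyte carried at least 5 of 14 epithelial markers and did not reach the limits for immune (4 of 10 markers), fibroblast (4 of 6), dermal papilla (3 of 5), melanocyte (4 of 5 and 5000 CPM), muscle (4 of 5 and 2000 CPM), endothelial (3 of 5) or satellite cells (2). A cell with both keratins belonged to the class of the more abundant one. Counts were summed per class and library and divided by the class total, scaled by 1e+06 (CPM), with exact Poisson intervals. Shares had exact Clopper-Pearson intervals and ratios exact conditional intervals, at 95%, for counting error only. A count of 0 allows up to 3 counts. A gene passed at 1.5-fold where both sums together held at least 20 UMIs. The share of all such genes that passed is printed beside each count of members, except under the alternative settings. Shares of cells were repeated at an expected 2000 UMIs per cell. Levels were not compared between genes, since 3′ UMI counts depend on the gene. No doublet caller was run. Removal of the cells with the highest UMI counts (0.8% per 1000 barcodes) and of cells with both keratins was tried instead. The genes named were the 7 members, all members of the fixed lists where examples were needed, and the nearest genes by correlation, of which 1 is not reported here. *Krt79*, *Krt17* and *Dcn* were marker genes on the fixed lists, and the *Krt79* division was chosen after seeing the data. *Krt85* and *Krt74* were not analysed here. The scripts were tested on simulated data. Coordinates were taken from GENCODE vM21 (GRCm38, the build mm10) and promoters from RefSeq (GRCm38.p6), which matched 4 of 7 members. Computation used Python 3.11.15, numpy 2.4.6, scipy 1.17.1 and pandas 2.3.3.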

Additional observations from a re-analysis of the deposited data

Results flagged for a closer look

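*Hoxc13* went in opposite directions in different classes under the same pair of libraries. In AA+Ab against AA the log2 ratio was 0.61 in *Krt10*-positive cells and -0.73 in *Krt71*-positive cells. In AA+Ab against Neg it was 0.62 in *Shh*-positive and 0.64 in *Krt75*-positive cells and -0.99 in *Krt71*-positive cells. The intervals of these 5 ratios did not include 1, each group was 1 library, and the difference between the classes was not tested. The *Krt10*-positive levels (6.04, 4.33 and 6.599 CPM in Neg, AA and AA+Ab) were no higher than those of immune cells (10.6, 9.07 and 22.7 CPM), read as background. The same held for the *Krt71*-positive CPM of AA+Ab (8.96). After thinning, however, 1.80% of these *Krt71*-positive cells had a *Hoxc13* UMI, against at most 1.40% of immune cells. The immune level itself was higher in AA+Ab than in AA. The *Krt71*-positive values rest on 106, 57 and 28 UMIs in Neg, AA and AA+Ab. Without the *Krt10*-carrying cells, neither the *Shh*-positive nor the *Krt71*-positive ratio of AA+Ab to Neg passed 1.5-fold.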

How the results depend on the processing

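No paired analysis was possible because each group was 1 library. Each library was a pool, so the values hold for these libraries. Few UMIs were behind *Foxn1* in *Shh*-positive and *Krt75*-positive cells and *Hoxc13* in *Krt71*-positive cells.

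The shares of keratinocytes in the classes depended on the thresholds. With 1 UMI of the keratin, the shares in Neg, AA and AA+Ab were 12.9%, 8.39% and 10.7% (*Krt35*), 17.0%, 7.78% and 10.5% (*Krt71*) and 1.71%, 1.68% and 2.13% (*Shh*). With 100 keratin UMIs and 2 *Shh* UMIs they were 0.667%, 0.224% and 0.472%, then 0.786%, 0.426% and 0.288%, then 1.73%, 1.34% and 1.94%. With a minimum in CPM they were 2.15%, 1.27% and 1.58%, then 2.34%, 1.21% and 1.13%, then 1.26%, 1.15% and 1.82%. Without the cells of highest UMI counts they were 1.60%, 1.07% and 1.5% in AA and 1.92%, 1.15% and 2.49% in AA+Ab for *Krt35*, *Krt71* and *Shh*.

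Values past 1.5-fold between libraries were counted over the 7 genes in 4 classes, 28 values in the main analysis. In AA against Neg the count went from 4 to 7 with the CPM minimum, 7 without the highest-UMI cells and 1 at 2-fold. Between AA+Ab and AA it went from 2 to 7 at 100 UMIs, 1 with the CPM minimum, 4 without the highest-UMI cells, 1 without cells of both keratins and 0 at 2-fold. In AA+Ab against Neg it went from 4 to 1 with 1 UMI, 2 without *Krt10* cells, 2 as a mean over cells and 1 at 2-fold. Counts of the 7 members between classes went from 4 to 2 (*Krt71*, 2-fold) and from 5 to 3 and 1 (*Shh*, CPM minimum and 2-fold). The share of all genes was not computed under these alternatives.

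The log2 ratio of *Ovol1* in *Krt10*-positive cells was 1.84 (AA against Neg), -1.57 (AA+Ab against AA) and 0.27 (AA+Ab against Neg). It was 1.67 and 0.10 at 100 UMIs, 1.66 and 0.093 with the CPM minimum (AA and AA+Ab against Neg), and 1.66, -1.08 and 0.58 in cells with 3 or more *Krt79* UMIs. *Hoxc13* in *Krt71*-positive cells changed sign in AA+Ab against AA, to 0.20 with 1 UMI and 0.50 without the highest-UMI cells, and in AA+Ab against Neg, to 0.35 with 1 UMI, 0.30 at 100 UMIs and 0.46 with the CPM minimum. *Msx2* in *Krt10*-positive cells changed sign in AA against Neg, to 0.65 in cells with 3 or more *Krt79* UMIs. Of 1911 values for single members under the alternatives, 1609 stayed within their counting intervals and 296 moved further. The 6 sign changes named here are of ratios past 1.5-fold, and 153 values in all changed sign. The cause of these shifts was not tested.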

Other observations

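Within the *Krt10*-positive class, cells with 5 or more *Ovol1* UMIs were compared with cells that had none. *Sbsn*, a gene of the suprabasal epidermis, was 2.19, 1.79 and 2.69 times as high in them in Neg, AA and AA+Ab, and *Grhl3*, a grainyhead factor of barrier formation, 1.57, 2.50 and 1.90 times. *Krt79* was 2.43, 1.09 and 5.04 times as high and *Krt17* 2.64, 1.36 and 4.18 times, and *Krt1*, a suprabasal keratin, 0.70, 1.09 and 0.61 times. The follicle keratins went with *Ovol1* less in AA than in the other libraries, a difference that was not tested. The other members had ratios of 4.94, 3.83 and 0.36 (*Lef1*), 4.21, 3.74 and 0.27 (*Hoxc13*) and 10.3, 2.34 and 0.43 (*Msx1*). Those of *Dlx3* were 3.53, 2.52 and 0.49, of *Msx2* 1.88, 1.54 and 0.35 and of *Foxn1* 0.71, 0.87 and 0.47. In AA+Ab these rest on few UMIs, as few as 3 for *Hoxc13*. Cells with more *Ovol1* UMIs were also deeper, with a median depth of 48367, 16201 and 25566 UMIs against 18334.5, 12965 and 14204 in the cells with none.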
